A study of Mus musculus with 3 samples.

Results

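Cxcr6/Itga1 CD8 T cells are the CD8 T cells of this mouse lung cancer series that carried transcripts of Ccl5 and of Cxcr6 or Itga1 and none of Gzmk, and they were put forward under the working name resident-like CD8 T cells. They were chosen by a rule on UMIs, the unique molecular identifiers that each count as 1 captured transcript. A cell needed at least 500 UMIs, at least 200 genes and at most 20% mitochondrial UMIs. It then needed at least 2 UMIs over Cd3e, Cd3d and Cd3g, at least 1 over Cd8a and Cd8b1, at least 3 of Ccl5 and at least 1 over Cxcr6 and Itga1. It had to hold 0 UMIs of Cd4, Gzmk, the natural killer gene Ncr1, the precursor genes Rag1, Dntt and Arpp21 and the B cell genes Cd79a and Ms4a1. Of the 29513 cells past the filters, 438 met the rule, which is 1.48% of all cells, 20.3% of the 2160 CD8 T cells and 27.8% of the 1576 CD8 T cells with at least 3 Ccl5 UMIs. The PBS library held 136 of them, the PD-L1 library 141 and the AI-Exo library 161.

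CD8 T cells kill infected or transformed cells through perforin and granzymes, and after activation some of them stay in a tissue in place of recirculating through blood and lymph. Such tissue-resident cells are known for the chemokine receptor CXCR6, whose ligand CXCL16 is made by myeloid and epithelial cells, for the collagen-binding integrin alpha 1 (Itga1, CD49a) and often for the E-cadherin-binding integrin alpha E (Itgae, CD103). They are also known to keep low levels of the egress genes Klf2 and S1pr1. In tumours, CD8 T cells of this kind are known to carry inhibitory receptors such as PD-1 (Pdcd1) beside their killing genes.

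The series profiled single cells by RNA sequencing from non-small cell lung cancer in the mouse, with 1 library for each of 3 groups that the labels call PBS, PD-L1 and AI-Exo, made with 10x Genomics 3′ v3.1 chemistry. The series title speaks of exosomes that inhibit autophagy and the design text of immune cells after drug treatment. The labels used here spell out neither PD-L1 nor AI-Exo, and they give no strain, age, tumour model, agent, dose, time, sort or number of pooled animals. The comparisons are between the groups and, within each library, between the Cxcr6/Itga1 cells and other CD8 T cells.

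With 1 library per group, a difference between groups has no replicate check, and intervals cover counting error only. The libraries held 9359, 9697 and 10457 cells (PBS, PD-L1 and AI-Exo, the order used throughout for 3 values) from 65997942 to 76512500 UMIs in all. The chosen cells held 833580, 736463 and 1381041 UMIs, with medians of 4498, 3872 and 4415 per cell. Pairs of libraries shared 23 to 33 cell barcodes. Among the chosen cells, 21, 14 and 47 (82 of 438) held at least 3 UMIs over 6 myeloid genes (S100a8, S100a9, Lyz2, Csf1r, Csf3r and C1qa), which is 15.4%, 9.93% and 29.2% of each library's cells. Cells of at least 15000 UMIs numbered 9, 4 and 26, and they held 24.0%, 11.6% and 50.2% of the chosen cells' UMIs. The summed level of 8 neutrophil markers was 6441, 614 and 1655 CPM (counts scaled to 1000000 summed UMIs), and that of 14 monocyte and macrophage markers 6238, 1923 and 6363 CPM, with no marker of either list at 0. Without the cells of 3 or more myeloid UMIs these sums were 86.1, 133 and 158 CPM and 1320, 936 and 692 CPM. Both lists hold some of those 6 genes, so lower sums follow in part from the choice of cells. Each comparison is therefore given with all chosen cells and without those 82 cells, an alternative added after the data were seen. In class comparisons that alternative also leaves out the cells of 3 or more myeloid UMIs in the other classes. In the text, "without myeloid-UMI cells" means that alternative.

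The rule's own genes set the identity of the cells and are given as a description. Cd8a (ENSMUSG00000053977), which encodes the alpha chain of the CD8 coreceptor, stood at 299, 479 and 232 CPM of the summed UMIs, and Cd8b1, its beta chain, at 481, 520 and 290 CPM. Ccl5 (ENSMUSG00000035042), a chemokine of effector and memory CD8 T cells, stood at 12618, 12237 and 8861 CPM. Cxcr6 (ENSMUSG00000048521) stood at 323 (95% exact Poisson interval 285 to 364), 581 (527 to 639) and 245 (220 to 273) CPM, and Itga1 (ENSMUSG00000042284) at 118 (95.4 to 143), 168 (140 to 201) and 111 (93.9 to 130) CPM. Most cells were far inside the Ccl5 limit, with medians of 58.5, 45 and 51 Ccl5 UMIs. Only 3, 2 and 4 cells had exactly 3 Ccl5 UMIs, and 3, 3 and 5 cells just outside had 2. The limit on Cxcr6 and Itga1 was less clear, since 46, 46 and 59 cells were inside with a single UMI, while 130, 109 and 218 cells that met the rest of the rule had 0. A further 56, 46 and 70 cells had Cxcr6 or Itga1 and exactly 1 Gzmk UMI and were outside for that UMI.

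Residency genes that the rule did not use were only partly present. Itgae (ENSMUSG00000005947) was at 2.40 (95% interval 0.291 to 8.67), 39.4 (26.4 to 56.6) and 21.7 (14.7 to 31.0) CPM, with a UMI in 2, 17 and 20 cells. It was lower in the Cxcr6/Itga1 cells than in the naive-like CD8 T cells of the same libraries, which held 66.1, 60.5 and 45.8 CPM (log2 fold change −1.70 ± 0.50 SE, edgeR quasi-likelihood adjusted p = 0.027). Zfp683, which encodes the residency factor Hobit, was near absent at 4.80, 5.43 and 2.17 CPM, from 4, 4 and 3 UMIs. Cd69, a retention and activation marker, was present at 492, 584 and 430 CPM, Prdm1, which encodes Blimp-1, at 58.8, 115 and 63.0 CPM, and Runx3, a CD8 lineage and residency factor, at 223, 325 and 235 CPM. The egress gene Klf2 remained high, at 1789, 1659 and 1445 CPM. The rule itself fixed the presence of Ccl5, of a CD8 gene and of Cxcr6 or Itga1, and the levels of Itgae, Zfp683 and Klf2 stood apart from the usual resident profile. The cells are therefore called here by the genes that chose them.

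The question of how common the cells were in each group was asked with 3 denominators. They made up 1.45% (95% exact Clopper-Pearson interval 1.22% to 1.72%), 1.45% (1.23% to 1.71%) and 1.54% (1.31% to 1.79%) of all cells, so the 3 libraries did not differ beyond counting error. Of the 704, 572 and 884 CD8 T cells they were 19.3% (16.5% to 22.4%), 24.7% (21.2% to 28.4%) and 18.2% (15.7% to 20.9%). Of the 453, 385 and 738 CD8 T cells with at least 3 Ccl5 UMIs they were 30.0% (25.8% to 34.5%), 36.6% (31.8% to 41.7%) and 21.8% (18.9% to 25%). The share of Ccl5 CD8 T cells was lowest in AI-Exo, where its interval lay below those of PBS and PD-L1, while the PBS and PD-L1 intervals overlapped. Every cell was also thinned to 1000 UMIs, which removes differences in depth, and the rule was applied anew to the thinned counts. It was met by 45, 50 and 45 cells, which need not be among those chosen before thinning. The shares of Ccl5 CD8 T cells were 24.6% (18.5% to 31.5%), 34.0% (26.4% to 42.3%) and 18.6% (13.9% to 24.1%). The PD-L1 and AI-Exo intervals then remained apart and the PBS interval overlapped both. The Gzmk-positive CD8 T cells, which belong to the last denominator, numbered 187, 135 and 359.

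**Figure D1:**
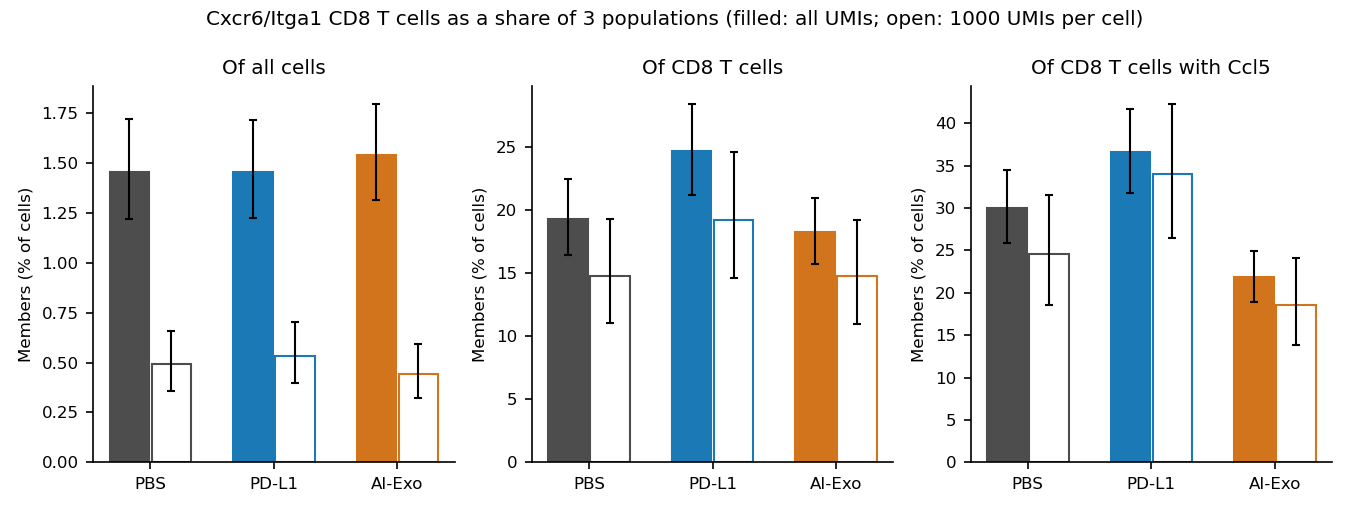
Share of Cxcr6/Itga1 CD8 T cells (y axis, percent) in the PBS, PD-L1 and AI-Exo libraries, over 3 denominators, with filled bars for all UMIs, open bars after thinning each cell to 1000 UMIs and error bars for 95% exact binomial intervals. The share of all cells is 1.45% to 1.54% in the 3 libraries, and the share of CD8 T cells with Ccl5 is highest in PD-L1 (36.6%) and lowest in AI-Exo (21.8%).

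Differences from other CD8 T cells were tested within the libraries, on UMIs summed per library and class, with edgeR's quasi-likelihood test, library as a block and Benjamini-Hochberg adjustment over all genes tested. The closest class met the same rule but had 0 UMIs of Cxcr6 and Itga1 (130, 109 and 218 cells). Of these cells 11, 10 and 50 held 3 or more myeloid UMIs and were left out in the alternative as well. Of 8574 genes, 22 were higher (0.257%) and 35 lower (0.408%), and without myeloid-UMI cells 131 of 7141 were higher (1.83%) and 225 lower (3.15%). The genes of the rule are left out of these counts.

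Naive and memory genes were the list with the most calls on the lower side. Of its 18 measured members, 9 were lower and 0 higher with all cells (median log2 fold change −1.0, against 0.01 over all genes tested), and 17 were lower without myeloid-UMI cells. Lef1, a transcription factor of naive T cells, was at 228, 163 and 166 CPM in the Cxcr6/Itga1 cells against 485, 430 and 425 CPM in the negative class (−1.41 ± 0.17, edgeR adjusted p = 0.0023), and all 3 Cxcr6/Itga1 values were below all 3 of the negative class. Tcf7, which encodes the memory and stem-like factor TCF-1, was at 116, 66.5 and 55.8 against 191, 226 and 168 CPM (−1.47 ± 0.24, edgeR adjusted p = 0.013). Satb1, a chromatin organiser of naive T cells, differed by −1.37 ± 0.27 (edgeR adjusted p = 0.037). Further named genes on the lower side were Aff3 (−1.67), Cmah (−1.48), Fam241a (−1.44), Sidt1 (−1.39), Rras2 (−1.20) and Klhl6 (−1.19).

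Of the 23 measured members of the egress list, 6 were lower and 0 higher with all cells, and 10 lower and 1 higher without myeloid-UMI cells. S1pr1, the sphingosine-1-phosphate receptor that lets T cells leave tissue, was at 69.6, 48.9 and 37.7 against 118, 79.9 and 89.8 CPM (−1.04 ± 0.21, edgeR adjusted p = 0.048). Klf2, the transcription factor that drives S1pr1, was at 1789, 1659 and 1445 against 2912, 2258 and 2234 CPM. Its difference of −0.72 ± 0.17 missed the threshold with all cells (edgeR adjusted p = 0.072) and passed it without myeloid-UMI cells (−0.85, edgeR adjusted p = 0.0039). Il7r, the interleukin 7 receptor of long-lived T cells, likewise passed only without them (−1.30, edgeR adjusted p = 0.0038), its edgeR adjusted p with all cells being 0.071. Of 9 genes in the list of chemokine and egress receptors, Cxcr5, S1pr1 and Cxcr4 were lower and 0 higher, and of 8 measured without myeloid-UMI cells the same 3 were lower and 2 higher. Cxcr4, the receptor for CXCL12, was at 209, 136 and 149 against 279, 250 and 214 CPM (−0.72 ± 0.15, edgeR adjusted p = 0.048).

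On the higher side, Tnfrsf9, which encodes the activation-induced costimulatory receptor 4-1BB, stood at 79.2, 262 and 161 CPM against 50.1, 51.0 and 30.2 CPM (1.75 ± 0.25, edgeR adjusted p = 0.0068). Gzmb, a granzyme, stood at 612, 455 and 480 against 307, 223 and 316 CPM (0.73 ± 0.15, edgeR adjusted p = 0.041). In both genes each Cxcr6/Itga1 value lay above every value of the negative class. Gzmb and Tnfsf10, which encodes the death ligand TRAIL (1.41 ± 0.25, edgeR adjusted p = 0.021), were the 2 of 18 cytotoxic effector genes that were higher, with 0 lower. Gzma did not pass (−0.18 ± 0.20, edgeR adjusted p = 0.80). Id2, a factor of effector cells, was at 909, 976 and 802 against 590, 462 and 506 CPM (0.66 ± 0.14, edgeR adjusted p = 0.048). The named genes on this side also held the secreted fibrinogen-like protein gene Fgl2 (1.68), Hip1 (1.36), Osbpl3 (0.95), Stk39 (0.93), the calcium-binding protein gene S100a4 (0.92), Ly6a, which encodes Sca-1 (0.87), the Notch pathway factor Rbpj (0.85) and the cell cycle kinase gene Cdk6 (0.76). The neutrophil chemokine gene Cxcl1 was also called (2.09), but its level of 196, 25.8 and 109 CPM went to 3.44, 1.69 and 3.37 CPM without myeloid-UMI cells.

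Inhibitory receptors of the checkpoint list passed the test only without myeloid-UMI cells, the alternative added after the data were seen. Of 24 measured checkpoint and exhaustion genes, 1 was higher with all cells (Id2), and of 22 measured without those cells 7 were higher (Pdcd1, Lag3, Havcr2, Id2, Irf4, Rgs16 and Cd38) and 2 lower (Btla and Nr4a1). Pdcd1 stood at 38.4, 125 and 81.1 CPM against 18.0, 45.9 and 27.4 CPM, higher in each of the 3 libraries. Its difference of 1.27 ± 0.28 missed the threshold with all cells (edgeR adjusted p = 0.061). It passed without myeloid-UMI cells (1.30, edgeR adjusted p = 0.0032). Lag3, an inhibitory receptor for MHC class II, differed by 1.34 (edgeR adjusted p = 0.022) and Havcr2, which encodes TIM-3, by 1.13 (edgeR adjusted p = 0.013), both without myeloid-UMI cells. With all cells their adjusted p values in edgeR were 0.069 and 0.58. The same cells left out, the chemokine genes Ccl3 (1.35, edgeR adjusted p = 0.0033) and Xcl1 (1.68, edgeR adjusted p = 0.033), the killing gene Prf1 (1.05, edgeR adjusted p = 0.021) and the natural killer receptor gene Klrc1 (1.18, edgeR adjusted p = 0.0013) were higher too. The residency list gave 0 of 26 with all cells and, of 24 without myeloid-UMI cells, 4 higher (Litaf, Rgs1, Xcl1 and Cdh1) and 2 lower (Cd69 and Nr4a1). The named genes of that fit also held Ifitm1 (2.96, against 0.16 with all cells), Anxa1 (2.35) and Mt1 (1.74) on the higher side and Ccr7, a lymph node homing receptor gene (−1.85), and Acp5 (−1.33) on the lower side. In the Cxcr6/Itga1 cells of that fit Ifitm1 was at 41.3, 62.4 and 18.5 CPM and Anxa1 at 60.2, 72.5 and 33.7 CPM. The naming limit of 100 CPM was read from all cells.

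These calls leaned on having all 3 libraries. With all cells, leaving out 1 library reduced the 57 calls to 9 without PBS, 11 without PD-L1 and 38 without AI-Exo. Lef1 and Aff3 kept an edgeR adjusted p under 0.05 in each of these fits, while Tcf7 and Tnfrsf9 reached 0.142 and 0.108 without PD-L1. After thinning to 1000 UMIs per cell, 66 genes were called. Of the named genes, Osbpl3, Stk39, Cdk6, Fam241a, Cmah and Rras2 did not pass there (edgeR adjusted p = 0.68, 0.54, 0.20, 0.42, 0.056 and 0.091). Hip1 and S100a4 did pass (edgeR adjusted p = 0.0090 and 0.00095). With library as a block, the p-values measure how far the differences between classes varied over these 3 libraries, with the spread shared by all classes in the fit. The 3 libraries carry different treatment labels, and nothing in the labels says whether a library is 1 animal.

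Against the Gzmk-positive CD8 T cells (187, 135 and 359 cells with Ccl5 and at least 1 Gzmk UMI, of which 111, 88 and 165 also held Cxcr6 or Itga1), few genes differed. With all cells, edgeR called 2 of 8574 genes higher (0.0233%) and 0 lower (0%), against 443 higher and 410 lower at an unadjusted p under 0.05 and 9 higher and 9 lower in DESeq2. The 2 genes were Cxcl1 and Fabp4, a fatty acid binding protein gene at 49.2, 5.43 and 245 CPM that was at 3.44, 0 and 0 CPM without myeloid-UMI cells. Leaving out 1 library gave 0 calls without PBS, 7 without PD-L1 and 4 without AI-Exo.

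Without myeloid-UMI cells, which also leaves out 19, 19 and 78 Gzmk-positive cells, the same comparison gave 19 of 7141 genes higher (0.266%) and 17 lower (0.238%). Of 23 measured cell division genes, 7 were lower and 0 higher (median −0.98, against 0.02 over all genes tested), so 7 of the 17 lower genes were of that list. The classes are split by 0 against at least 1 Gzmk UMI, and deeper cells have more chances to hold one. Over all chosen cells, the dividing ones had medians of 11725, 9639.5 and 10497 UMIs. The part of depth in this result was not tested. Hmgb2, a chromatin protein gene of dividing cells, stood at 711, 705 and 1086 CPM in the Cxcr6/Itga1 cells (−1.10 ± 0.22, edgeR adjusted p = 0.019). With all cells the levels were 717, 743 and 818 CPM against 1211, 1711 and 1982 CPM in the Gzmk-positive class, which did not overlap. The mitotic genes Ube2c, Birc5 and Cks1b differed by −1.94, −1.65 and −1.64 (edgeR adjusted p = 0.0080, 0.021 and 0.0097). Eomes, a transcription factor of effector and exhausted CD8 T cells, stood at 14.4, 24.4 and 30.4 against 74.3, 69.4 and 68.2 CPM (−1.42, edgeR adjusted p = 0.049 without myeloid-UMI cells, 0.12 with all cells). Gzma, a granzyme, was lower by 0.61 (log2 −0.61, edgeR adjusted p = 0.027), and Sh2d1a, an adaptor of T cell help, by 0.90 (log2 −0.90, edgeR adjusted p = 0.0055). The remaining named genes on the lower side were Il10ra (−1.04), Pycard (−0.92), Dbi (−0.78), Dnajc9 (−0.77) and Tubb5 (−0.73).

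On the higher side of that comparison stood Xcl1, a chemokine gene that attracts cross-presenting dendritic cells, at 208, 160 and 505 CPM (2.29 ± 0.44, edgeR adjusted p = 0.015). Il7r stood at 355, 99.5 and 92.6 CPM (1.67 ± 0.29, edgeR adjusted p = 0.0082) and Inpp4b, a phosphatase gene of the residency list, at 358, 511 and 399 CPM (1.05 ± 0.17, edgeR adjusted p = 0.0055). Pag1 (1.01), Satb1 (1.01) and Sgms1 (0.94) completed the named genes. Of 22 checkpoint genes 0 passed in either direction, and Pdcd1 differed by 0.15 (edgeR adjusted p = 0.83). In the residency list 2 of 24 were higher, Inpp4b and Xcl1. Without myeloid-UMI cells Il7r was thus below the negative class and above the Gzmk-positive class.

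The naive-like CD8 T cells (184, 127 and 74 cells with 0 UMIs of Ccl5, Gzmk, Cxcr6 and Itga1 and at least 1 UMI over a set of naive T cell genes that holds Ccr7 and Lef1) gave the widest contrast. Of 8571 genes, 879 were higher (10.3%) and 873 lower (10.2%) in the Cxcr6/Itga1 cells, and without myeloid-UMI cells 1008 of 7138 were higher (14.1%) and 893 lower (12.5%). Leaving out PBS, PD-L1 or AI-Exo gave 790, 1342 and 992 calls in all. Killing and natural killer receptor genes led. Gzmb stood at 612, 455 and 480 against 4.07, 6.05 and 2.29 CPM (6.72 ± 0.25, edgeR adjusted p = 1.1e-09), and Klrc1, which encodes the inhibitory receptor NKG2A, at 337, 388 and 203 against 2.03, 0 and 4.58 CPM (7.41 ± 0.46, edgeR adjusted p = 3.6e-07). Of the lists, 14 of 18 cytotoxic effector genes, 12 of 14 natural killer receptor genes and 14 of 24 checkpoint genes were higher, with 0, 0 and 2 lower. Gzma (6.73), Klre1 (6.02), the activating receptor gene Klrk1 (5.63), Tmem163 (5.50), Ifng, which encodes interferon gamma (5.39), the effector factor gene Tbx21 (5.0) and Xcl1 (4.50) were the other named T cell genes. Without myeloid-UMI cells S100a4 (7.31), Hip1 (5.85), Ccl3 (5.78), S100a6 (5.75) and Fgl2 (5.57) joined the 10 highest. That fit also left out 21, 23 and 10 naive-like cells. The difference of S100a4 was 2.27 with all cells. Its level in the Cxcr6/Itga1 cells was 1148, 1483 and 1461 CPM with all cells and 1124, 1627 and 1996 CPM in that fit.

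On the lower side, 14 of 15 naive and memory genes passed, with 0 higher. Dapl1 stood at 8.40, 20.4 and 15.9 against 235, 183 and 275 CPM (−4.10 ± 0.30, edgeR adjusted p = 1.0e-06) and Satb1 at 192, 167 and 224 against 1094, 1229 and 1075 CPM (−2.65 ± 0.27, edgeR adjusted p = 2.1e-05). Tdrp (−3.47), Nsg2 (−3.16), Igfbp4 (−2.83), St6gal1 (−2.82), Fam241a (−2.58), Aff3 (−2.50), Cmah (−2.47) and Tcf7 (−2.42) followed, and without myeloid-UMI cells Ramp1 (−3.71), Ifngr2 (−3.33) and Actn1 (−2.62) joined the 10 lowest. The residency list split, with 10 of 26 higher and 2 lower, Itgae and Inpp4b. Rgs1, a G protein regulator of tissue T cells, was at 737, 1077 and 925 against 216, 195 and 264 CPM (1.88 ± 0.16, edgeR adjusted p = 4.9e-06), and Itgb1, the beta chain that pairs with Itga1, at 416, 451 and 342 against 78.3, 90.7 and 43.5 CPM (2.36 ± 0.22, edgeR adjusted p = 8.6e-06). Cd69 did not pass (−0.41 ± 0.21, edgeR adjusted p = 0.19). Camp, a neutrophil granule gene, was also called higher (9.10), and 996 of its PBS UMIs were in 1 cell.

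**Figure D2:**
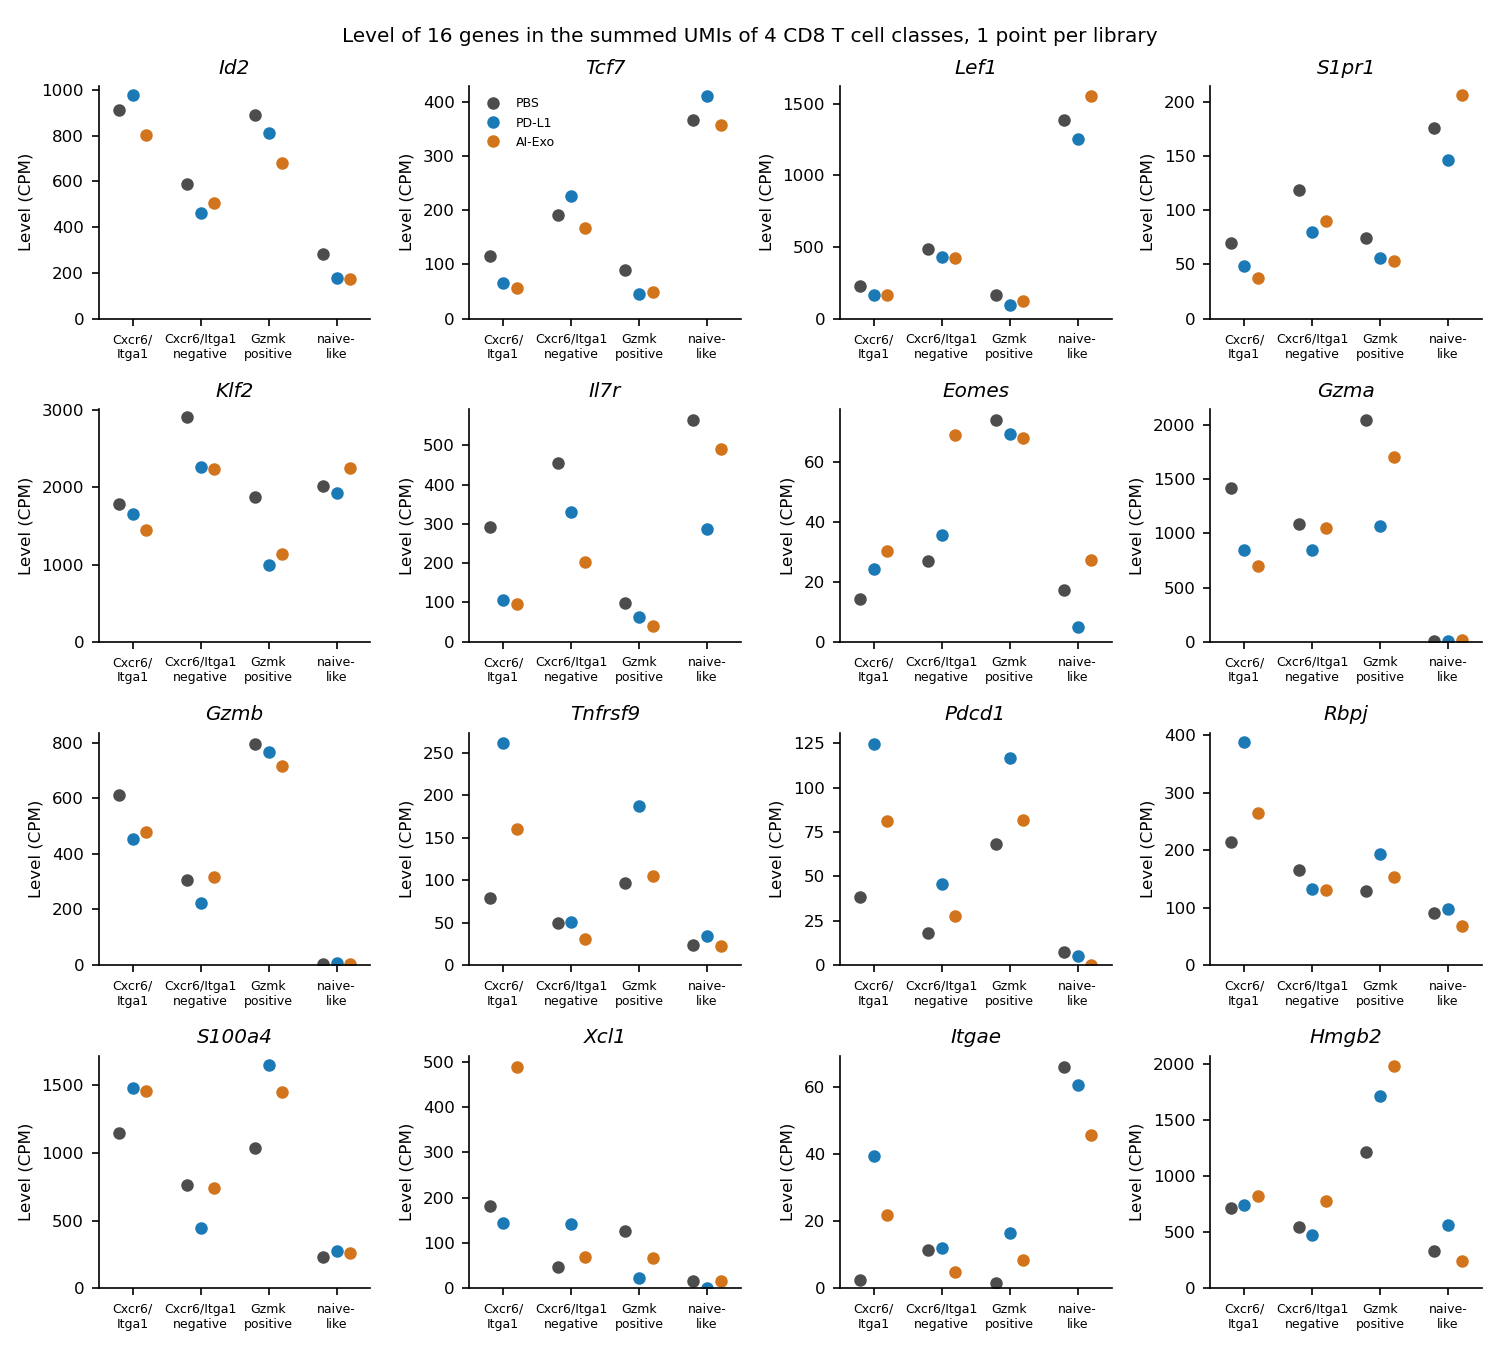
Level of 16 genes (y axis, CPM of summed UMIs) in Cxcr6/Itga1 cells and in the Gzmk-positive, Cxcr6 Itga1-negative and naive-like CD8 T cells, with 1 point per library. Lef1 and Tcf7 are lower in the Cxcr6/Itga1 cells than in the negative class in all 3 libraries, and Gzmb and Tnfrsf9 are higher.

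The comparison of the PD-L1 with the PBS library asks how the cells differed between 2 treatment labels. It uses the log2 ratio of CPM + 10 over genes whose mean reached 50 CPM, and a gene is called when the ratio is at least 1.5-fold in either direction. With all cells 221 of 3235 genes were higher in PD-L1 (6.83%) and 143 lower (4.42%). Without myeloid-UMI cells 239 of 3163 were higher (7.56%) and 127 lower (4.02%), and 152 of the 221 and 66 of the 143 were called again. The excess of higher genes depended on the scaling and on the level of the genes. With TMM scaling, edgeR's scaling that trims extreme genes, 143 genes were higher and 187 lower with all cells, and among genes with a mean of at least 200 CPM 29 were higher and 46 lower. The median over all genes was 0.09 and 0.08.

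Of 18 measured checkpoint and exhaustion genes, 5 were higher in PD-L1 and 0 lower (median 0.38), and 7 and 0 without myeloid-UMI cells (median 0.43). With all cells the list's median was 0.56 in the Gzmk-positive class and 0.22 in the negative class, so it was above 0 there too. Pdcd1 stood at 38.4 (95% Poisson interval 26.3 to 54.2) CPM in PBS and 125 (101 to 153) CPM in PD-L1, a log2 ratio of 1.48, with a UMI in 14 of 136 and 45 of 141 cells. After thinning, 2.21% and 11.4% of the cells held a Pdcd1 UMI. Rgs16, a regulator of G protein signalling of activated T cells, was at 43.2 (30.2 to 59.8) and 210 (179 to 246) CPM, a log2 ratio of 2.05. Havcr2 was at 20.4 and 80.1 CPM (1.57), Tox, which encodes a transcription factor of exhausted cells, at 192 and 502 CPM (1.34), and Ctla4 at 116 and 196 CPM (0.70). For Pdcd1, Rgs16, Havcr2 and Tox the counting intervals of the 2 libraries did not overlap, and without myeloid-UMI cells the ratios were 1.28, 1.83, 1.67 and 1.16.

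Of 15 measured cytotoxic effector genes, 3 were higher and 4 lower (median −0.11), and 3 were higher and 3 lower without myeloid-UMI cells (median 0.15). Prf1, which encodes perforin, was at 115 and 297 CPM (log2 ratio 1.30), and Cst7, a cathepsin inhibitor of cytotoxic cells, at 76.8 and 157 CPM (0.95). Gzma was at 1419 and 850 CPM (−0.73) and Gzmb at 612 and 455 CPM (−0.42). Tnfrsf9 was at 79.2 and 262 CPM (1.61), and its ratio was 1.70 without myeloid-UMI cells and 0.50 after thinning. Thinning also lowered the ratios of Prf1 to 0.43 and Ctla4 to 0.22, both below the 1.5-fold call.

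Of 11 naive and memory genes, 0 were higher in PD-L1 and 3 lower (median −0.26), and 5 were lower without myeloid-UMI cells. With all cells the list's median was −0.58 in the Gzmk-positive class and −0.37 in the negative class, so it was below 0 there too. Il7r had 293 (257 to 332) CPM in PBS and 106 (83.7 to 132) CPM in PD-L1, a log2 ratio of −1.38. Tcf7 was at 116 and 66.5 CPM (−0.72) and Bcl2, a survival gene, at 363 and 235 CPM (−0.61). Ccr2, the receptor for the chemokine CCL2, was at 156 and 58.4 CPM (−1.28). Of 16 egress genes 0 were higher and 2 lower.

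Of 13 measured type I interferon response genes, 6 were higher and 2 lower (median 0.36). Ifit3 was at 70.8 (53.9 to 91.3) and 201 (170 to 236) CPM (log2 ratio 1.38), Ifi27l2a at 353 and 809 CPM (1.18) and Bst2, which encodes tetherin, at 143 and 299 CPM (1.02). Ifit2 was at 235 and 70.6 CPM (−1.60). Autophagy genes gave 0 of 13 in either direction (median −0.28, and −0.13 without myeloid-UMI cells).

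Outside the lists, the 8 genes with the highest ratio also held Slc7a11 (1.75), Rasgef1b (1.75), Setbp1 (1.52) and the histone gene Hist1h1b (1.47), and the ratio of Slc7a11, a cystine transporter gene, was 0.22 without myeloid-UMI cells. Of the 123 Hist1h1b UMIs of the PD-L1 cells 78 were in 1 cell, and without cells of a gamma-delta constant gene UMI its ratio was 0.41, below the 1.5-fold call. The 8 lowest with all cells were genes of neutrophils and macrophages, namely Camp (−6.57), Ngp (−5.15), Lcn2 (−4.93), S100a9 (−3.69), S100a8 (−3.67), Ccl12 (−3.42), Arg1 (−3.35) and Apoe (−3.29). Without myeloid-UMI cells none of these 8 kept a ratio below −0.43. S100a8 and S100a9 are among the genes that chose the cells left out, so their levels there were limited by that choice. The lowest were then Cd74 (−4.16), H2-Ab1 (−3.84), H2-Eb1 (−3.66) and H2-Aa (−3.06), genes of MHC class II presentation, followed by Basp1 (−2.05), Marcksl1 (−1.97), Cst3 (−1.86) and Il7r (−1.74). The level of Cd74 was 953, 43.8 and 47.1 CPM in those cells, and 374 of its 554 PBS UMIs there were in 1 cell. Without the cells of at least 15000 UMIs its ratio was 1.45. Summed B cell markers were at 1005, 79.2 and 94.2 CPM and dendritic cell markers at 1050, 99.5 and 72.4 CPM in the same cells, and their part in the result was not tested. The highest then were Capg (2.0), Lmna (1.88), Rgs16, Tnfrsf9, Hist1h1b (1.52), Ifi27l2a (1.43), Rbpj (1.38) and Ifit3 (1.30).

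The comparison of AI-Exo with PBS shares the PBS library with the one above, so these comparisons are not independent. With all cells 262 of 3250 genes were higher in AI-Exo (8.06%) and 113 lower (3.48%). Without myeloid-UMI cells 241 of 3154 were higher (7.64%) and 138 lower (4.38%), and 103 of the 262 and 54 of the 113 were called again. AI-Exo is the library with the most myeloid-UMI cells (47 of 161), so values without them are given beside each result.

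Of 15 measured checkpoint and exhaustion genes, 5 were higher in AI-Exo and 0 lower (median 0.41), and 6 and 0 without myeloid-UMI cells (median 0.52). With all cells the list's median was 0.22 in the Gzmk-positive class and 0.05 in the negative class. Pdcd1 was at 38.4 CPM in PBS and 81.1 (66.8 to 97.6) CPM in AI-Exo (log2 ratio 0.91), and at 48.2 and 138 CPM without myeloid-UMI cells (1.35). It had a UMI in 14 of 136 PBS cells and 49 of 161 AI-Exo cells. After thinning, 2.21% (exact interval 0.457% to 6.31%) of PBS cells and 6.83% (3.46% to 11.9%) of AI-Exo cells held one. These intervals overlapped, while the log2 ratio of the thinned Pdcd1 levels was 1.47. Rgs16 was at 43.2 and 143 CPM (1.52, and 1.65 without myeloid-UMI cells) and Ikzf2, which encodes the transcription factor Helios, at 76.8 and 164 CPM (1.0 and 1.09). Dividing cells numbered 10 in PBS and 26 in AI-Exo. In the comparison with PD-L1 below, Ikzf2 was not higher in AI-Exo without dividing cells, and their part in the ratio against PBS was not tested. The ratio of Tox was 0.41 with all cells and 0.98 without myeloid-UMI cells.

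Of 13 naive and memory genes, 1 was higher and 4 were lower (median −0.31), and 0 higher and 9 lower without myeloid-UMI cells (median −0.65). With all cells the list's median was −0.41 in the Gzmk-positive class and −0.19 in the negative class. Il7r was at 293 and 95.6 (80.0 to 113) CPM (log2 ratio −1.52 and −1.83 without myeloid-UMI cells), Tcf7 at 116 and 55.8 CPM (−0.94 and −1.45) and Bcl2 at 363 and 210 CPM (−0.76 and −0.81). The 1 higher gene, Id3, a memory factor, turned from 1.45 to −0.65 without myeloid-UMI cells. Ccr2 was at 156 and 86.9 CPM (−0.78, and −1.46 without myeloid-UMI cells).

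Xcl1, the chemokine gene described above, was at 181 (153 to 212), 144 (118 to 174) and 489 (453 to 527) CPM, with log2 ratios of 1.38 against PBS and 1.70 against PD-L1, and 1.24 and 1.60 without myeloid-UMI cells. Its UMIs came from 19, 17 and 21 cells, so a similar number of cells held it in each library, and without myeloid-UMI cells 1 AI-Exo cell held 102 UMIs. After thinning, its levels were 243, 114 and 267 CPM, a log2 ratio of 0.13 between AI-Exo and PBS and 1.16 between AI-Exo and PD-L1, so the difference from PBS was not seen at equal depth. An Xcl1 UMI was then found in 6.62%, 5.71% and 6.21% of the cells. In the Gzmk-positive class the AI-Exo level was lower than the PBS level, at 66.4 and 127 CPM.

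Of 14 cytotoxic effector genes 1 was higher and 1 lower (median −0.10). The higher gene was Ctsd, a lysosomal protease gene also made by macrophages (1.08, and 0.40 without myeloid-UMI cells), and the lower gene was Gzma, at 1419 and 700 CPM (−1.01, and −0.55 without myeloid-UMI cells). Without those cells Prf1 was the 1 gene called, on the higher side (0.83). Klrk1, the gene of the activating receptor NKG2D, was at 369 (329 to 413) and 152 (132 to 174) CPM (−1.23 and −0.84), and Ly6c2, a surface marker of memory CD8 T cells, at 798 and 327 CPM (−1.26 and −0.91). Glycolysis genes gave 0 of 12 in either direction with all cells (median 0.20), and 5 higher and 0 lower without myeloid-UMI cells (median 0.55). Tpi1, an enzyme gene of that list, had a ratio of 0.47 and 1.16. Autophagy genes gave 0 of 13 in either direction (median 0.08), and 0 higher and 3 lower without myeloid-UMI cells (median −0.10), against a median of 0.07 over all genes there.

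The named genes with all cells were mainly myeloid. The 8 highest were Spp1 (5.52), Lpl (4.09), Mgp (3.47), Gpnmb (3.27), Olr1 (2.78), Chil3 (2.67), Cd9 (2.38) and Slc7a11 (2.12), and without myeloid-UMI cells none of these exceeded 0.72. The 8 lowest were Camp (−6.01), Ngp (−4.81), Lcn2 (−3.55), Ccl12 (−3.08), Pf4 (−3.07), S100a8 (−2.71), S100a9 (−2.50) and Ccl7 (−1.85), and without those cells their ratios ran from −0.20 to 1.34. Here too S100a8 and S100a9 are among the genes that chose the cells left out. Without myeloid-UMI cells the highest were Cenpa, a centromere gene (2.44), Capg (2.22), Setbp1 (1.78), Rgs16 (1.65), Tnfrsf9 (1.55), Lgals3 (1.51), Hist1h1b (1.37) and Pdcd1 (1.35). The lowest were again the MHC class II genes Cd74 (−4.08), H2-Aa (−4.06), H2-Eb1 (−4.01) and H2-Ab1 (−3.99), then Basp1 (−3.06), Marcksl1 (−2.05), Cst3 (−2.00) and P4ha1 (−1.84). Capg, Rgs16, Tnfrsf9 and Hist1h1b stood among the 8 highest of both comparisons with PBS in those cells, whose control library is the same. For AI-Exo against PBS with all cells, leaving out the dividing cells lowered the ratio of Hist1h1b from 1.02 to 0.17 and that of Tnfrsf9 from 0.94 to 0.39.

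**Figure D3:**
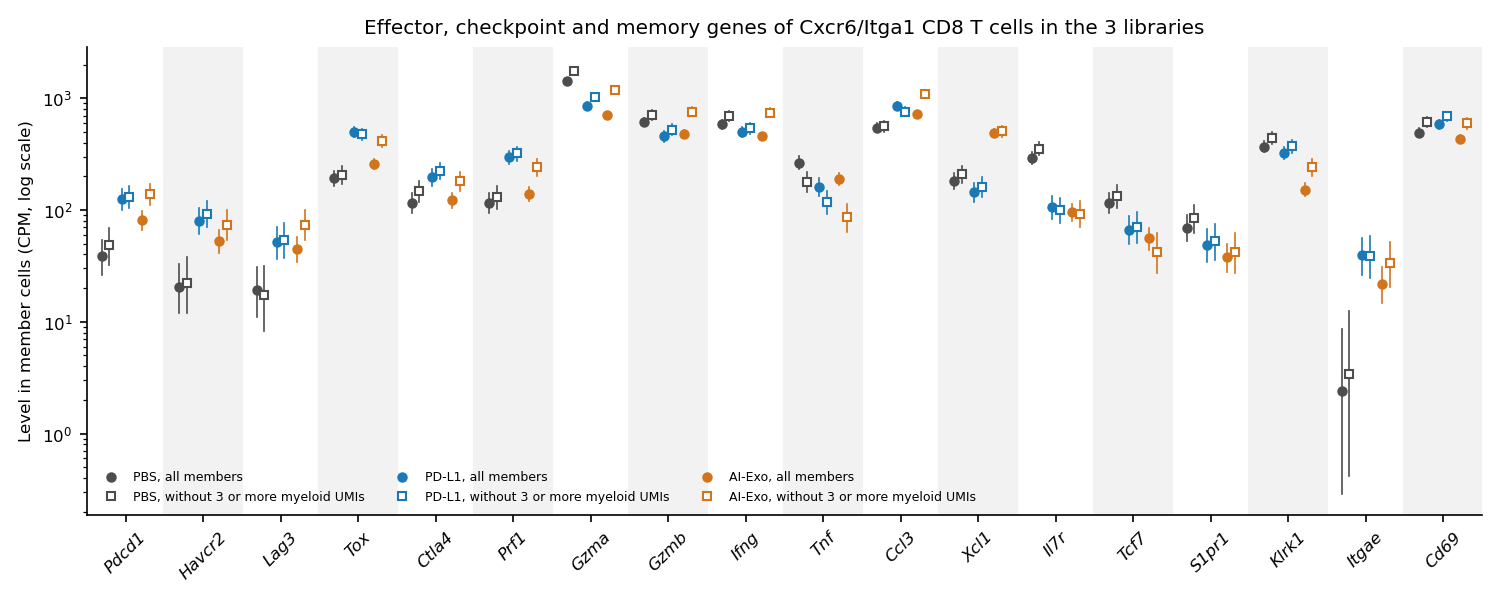
Level of 18 genes (y axis, CPM of summed UMIs, log scale) in the Cxcr6/Itga1 cells of the PBS, PD-L1 and AI-Exo libraries, with filled points for all cells, open squares without the cells of 3 or more myeloid UMIs and bars for 95% Poisson intervals. Pdcd1 stands at 38.4 CPM in PBS, 125 CPM in PD-L1 and 81.1 CPM in AI-Exo, and Il7r at 293, 106 and 95.6 CPM.

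Between AI-Exo and PD-L1, most differences with all cells were not seen again without myeloid-UMI cells. With all cells 270 of 3325 genes were higher in AI-Exo (8.12%) and 188 lower (5.65%). Without myeloid-UMI cells 89 of 3223 were higher (2.76%) and 113 lower (3.51%), and only 32 of the 270 and 58 of the 188 were called again. The type I interferon response list had 1 of 13 genes higher and 8 lower in both sets of cells (median −0.71, and −0.60 without myeloid-UMI cells, against −0.05 and 0.00 over all genes). Ifit3 had 201 (170 to 236) CPM in the PD-L1 library and 84.0 (69.4 to 101) CPM in AI-Exo (log2 ratio −1.17 and −1.19 without myeloid-UMI cells), Rtp4 at 130 and 52.9 CPM (−1.16 and −1.18) and Bst2 at 299 and 144 CPM (−1.0 and −1.22). The 1 higher gene was Rsad2 with all cells (1.32, and −1.21 without myeloid-UMI cells) and Ifit2 without them (0.60). In the Gzmk-positive and negative classes without myeloid-UMI cells the median of this list was −1.0 and −1.01, so the list's median was below 0 in those classes too.

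Of 18 heat shock and dissociation stress genes, 0 were higher in AI-Exo and 6 lower in both sets of cells. Hspa1b, an inducible HSP70 gene, was at 616 CPM in PD-L1 and 238 CPM in AI-Exo (−1.34, and −1.21 without myeloid-UMI cells). Such genes also respond to tissue handling, whose part in this difference was not tested. Checkpoint genes split with all cells, 2 of 17 higher and 3 lower (median −0.24), and gave 1 and 0 without myeloid-UMI cells (median 0.00). Tox went from −0.93 to −0.19, Prf1 from −1.04 to −0.40 and Pdcd1 from −0.57 to 0.06. The higher gene was Ikzf2 (1.35 without myeloid-UMI cells), and without dividing cells its ratio was −0.15. The named genes on the lower side with all cells were Ifi206 (−1.79), Hnrnpa0 (−1.68), Cst7 (−1.35) and Hspa1b, and on the higher side Spp1 (4.41), Fabp4 (4.05), Gpnmb (3.77) and Arg1 (3.72), none of which exceeded 0 without myeloid-UMI cells. There, Mt1 (2.0, and with all cells 0.79 and after thinning 0.29), Xcl1, Ikzf2 and Serpinb6b (1.15) were the highest and Hnrnpa0 (−1.53), Cebpb (−1.52), Ifi206 (−1.31) and Cd86 (−1.31) the lowest.

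**Figure D4:**
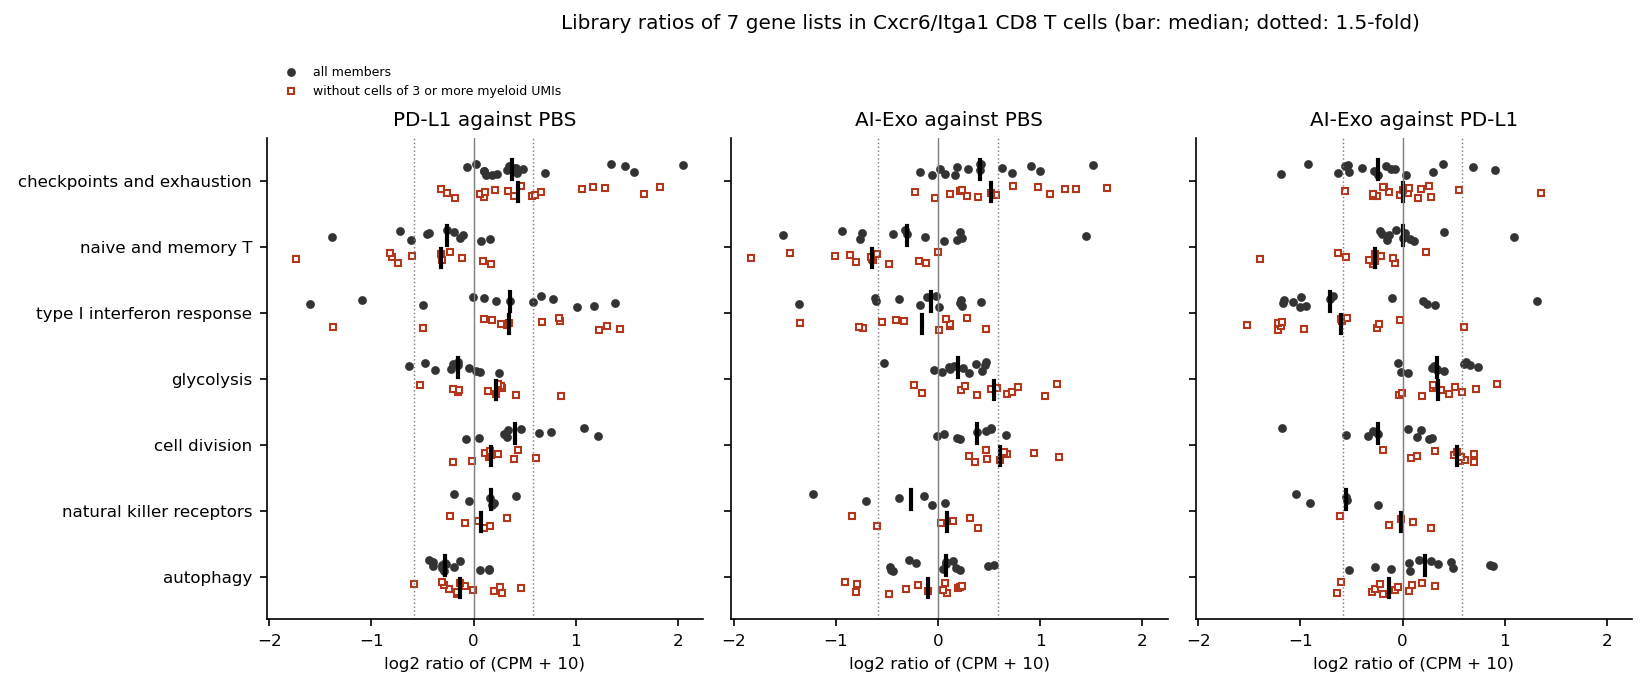
Log2 ratios of the measured members of 7 gene lists (x axis) of CPM + 10 in the 3 comparisons between libraries, with filled points for all Cxcr6/Itga1 cells, open squares without cells of 3 or more myeloid UMIs, bars for medians and dotted lines at 1.5-fold. Checkpoint genes lie mostly to the right in both comparisons with PBS (medians 0.38 and 0.41), and type I interferon genes mostly to the left in AI-Exo against PD-L1 (median −0.71).

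Within the chosen cells, Cxcr6 and Itga1 overlapped in part. Cxcr6 alone was found in 85, 71 and 81 cells, Itga1 alone in 16, 22 and 30 and both in 35, 48 and 50. Cells of at least 2 UMIs over 8 cell division genes numbered 10, 12 and 26, and cells with a UMI of a gamma-delta T cell receptor constant gene 9, 15 and 15. Variation among cells was read from the variance over the mean of thinned counts, averaged over the 3 libraries. Without myeloid-UMI cells the genes with the most variation were Ccl4 (12.2), Gzma (9.04), Xcl1 (8.0) and Ccl3 (7.41), so chemokine and granzyme genes came first. Klf2 (5.05) also stood among the 15 highest. With all cells the list began with the neutrophil genes S100a9 (60.4), S100a8 (32.1) and Camp (18.9) and the macrophage gene Spp1 (17.3).

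Cells with a Pdcd1 UMI differed from the rest in the same direction in all 3 libraries for a number of genes. The following values are without myeloid-UMI cells, where 11 of 115, 39 of 127 and 36 of 114 cells held a Pdcd1 UMI. They are descriptions without a test, and the part that depth has in them was not tested. The median depth of Pdcd1-UMI cells was 6890, 4586 and 5931 UMIs over all chosen cells. Tnfrsf9 stood at 290, 652 and 495 CPM in Pdcd1-UMI cells and at 51.5, 68.0 and 48.2 CPM in the others. Tox stood at 501, 815 and 650 against 162, 267 and 202 CPM, and Lag3 at 65.9, 124 and 127 against 9.90, 10.9 and 25.7 CPM. The inhibitory receptor genes Havcr2 (65.9, 199 and 120 against 15.8, 27.2 and 32.1 CPM) and Ctla4 (356, 439 and 240 against 117, 92.5 and 129 CPM) were higher as well. Gzma showed the opposite order, at 65.9, 235 and 502 against 1993, 1513 and 1816 CPM. Klf2 was at 198, 620 and 823 against 1997, 2253 and 1376 CPM, and Klf3, Ly6c2, Klrk1 and Ccl5 were also lower in Pdcd1-UMI cells in each library.

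**Figure D5:**
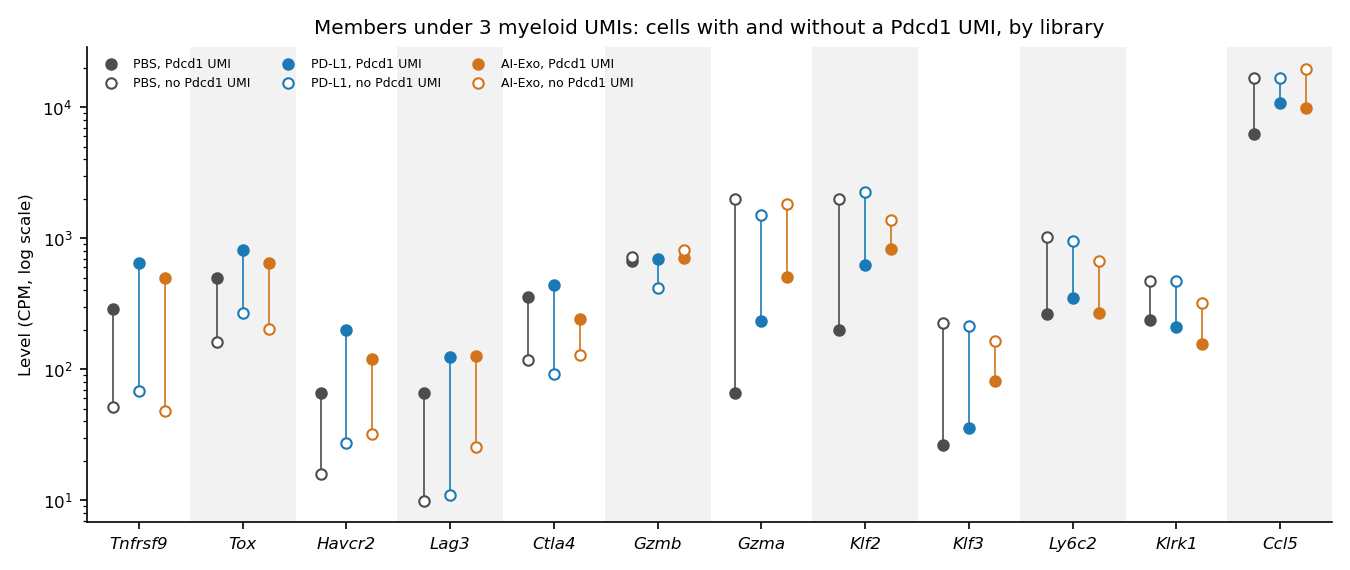
Level of 12 genes (y axis, CPM of summed UMIs, log scale) in Cxcr6/Itga1 cells with (filled) and without (open) a Pdcd1 UMI, in each of the 3 libraries, without cells of 3 or more myeloid UMIs. Tnfrsf9, Tox, Havcr2, Lag3 and Ctla4 are higher and Gzma and Klf2 lower in the Pdcd1-UMI cells of every library.

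Cells with both Cxcr6 and Itga1 had less of the egress gene Klf2 than the other chosen cells, at 909, 992 and 669 against 2140, 1908 and 1318 CPM (without myeloid-UMI cells). Gzma was lower in them, at 690, 471 and 898 against 2207, 1266 and 1325 CPM, and so was Ccl5. The chemokine receptor genes Cxcr3 (146, 123 and 181 against 67.0, 74.8 and 76.4 CPM) and Ccr2 (320, 84.0 and 117 against 132, 53.1 and 37.0 CPM) were higher. Cells with Itga1 alone looked different. They held 0 UMIs of Lag3 in all 3 libraries, less Ccl3 (314, 329 and 133 against 578, 833 and 1239 CPM), and more Tbx21 (627, 625 and 315 against 271, 221 and 215 CPM) and Cxcr4 (506, 208 and 170 against 174, 114 and 84.0 CPM). These are 12, 22 and 18 cells, so each level rests on few cells.

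The few cells with an Itgae UMI (2, 12 and 13 without myeloid-UMI cells) held less Gzma, at 202, 302 and 121 against 1782, 1108 and 1324 CPM. S100a4 was higher in them, at 1479, 3504 and 3559 against 1115, 1417 and 1800 CPM. Over all chosen cells an Itgae UMI was found in 1.47% (95% exact interval 0.179% to 5.21%), 12.1% (7.18% to 18.6%) and 12.4% (7.76% to 18.5%) of the cells, so the PBS interval lay below both others. After thinning, 0, 5 and 7 cells held one, with intervals of 0% to 2.68%, 1.17% to 8.14% and 1.77% to 8.75% that overlapped. With so few cells left, that overlap does not settle whether the libraries differed at equal depth.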

How the data were processed

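The deposited files hold UMI counts per gene and cell barcode for 3 libraries with 32285 genes each. Per the file headers the matrices come from Cell Ranger 7.1.0, while the submitters' processing notes name version 3.0.2. A genome build was not given in the sources used here. Counts made by the authors were used as deposited. No cell annotation was used, so cells were chosen by UMI gates, and the members and gene lists were chosen with earlier results of these data known.

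Scrublet (through scanpy 1.11.5) did not separate doublets by its automatic threshold, which marked 1, 0 and 0 cells, so a score of 0.15 was used as an alternative only. Levels are counts scaled to 1000000 (CPM) of the UMIs summed over the cells of a class and library, with exact Poisson intervals at 95%. Library comparisons use log2 of CPM + 10 over genes of mean CPM of at least 50, with no test. Class comparisons use edgeR 4.0.16 (quasi-likelihood, TMM, filterByExpr, library as a block) on 12 sums in R 4.3.3, with a Benjamini-Hochberg threshold of 0.05. The fit was also run on simulated counts that had the same capped spread for all genes. That is simpler than in these data, so the run does not check these calls. DESeq2 1.42.0 was an alternative. Libraries carry no replicate numbers, so the block pairs classes taken from the same library.

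Named genes in class comparisons are the 10 highest and 10 lowest fold changes among genes past the threshold, at 100 CPM or more in the higher class and with the same direction in all 3 libraries. For the fit without myeloid-UMI cells, level and direction were still read from all cells. In comparisons with PBS they are the 8 highest and 8 lowest ratios at 100 CPM or more and 50 UMIs or more, and the 4 highest and 4 lowest for AI-Exo against PD-L1. Mitochondrial, ribosomal, antigen receptor, haemoglobin, sex-linked and predicted genes and the genes of the gates were left out. Members of the gene lists and a set of residency, memory, killing and checkpoint genes were given besides. Subsets of cells and the genes named in them are descriptions, chosen after their values were seen. A gene that met these rules is not reported here.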

Additional observations from a re-analysis of the deposited data

Results flagged for a closer look

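Some genes differed between libraries in opposite directions in the Cxcr6/Itga1 cells and in the Gzmk-positive CD8 T cells. With 1 library per group these differences were not tested.

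For PD-L1 against PBS, the log2 ratio of Marcksl1 was −2.26 in the Cxcr6/Itga1 cells and 0.68 in the Gzmk-positive cells, and that of Basp1 was −1.21 and 1.41. For AI-Exo against PBS, the ratio of the chemokine gene Xcl1 was 1.38 and −0.84, and that of Marcksl1 −0.95 and 0.75. Without myeloid-UMI cells in either class, only Xcl1 of these 3 genes still differed in sign, at 1.24 and −0.62, and after thinning its ratio in the Cxcr6/Itga1 cells was 0.13. For PD-L1 against PBS the ratios were then −1.97 and −1.0 for Marcksl1 and −2.05 and −1.74 for Basp1, and for AI-Exo against PBS −2.05 and −0.25 for Marcksl1, so both classes had the same sign. Of the 59 Basp1 UMIs left in the PBS Cxcr6/Itga1 cells, 37 were in 1 cell.

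The other genes of this kind were myeloid or stromal, all for AI-Exo against PBS. The ratios were −3.55 and 2.13 for Lcn2, −2.71 and 1.82 for S100a8, −2.50 and 1.55 for S100a9, −3.07 and 0.81 for Pf4, 3.47 and −1.78 for Mgp and −6.01 and 3.30 for Camp. Without myeloid-UMI cells in either class, Lcn2 (0.88 and 1.12), S100a8 (1.34 and 0.48), S100a9 (0.59 and 0.26) and Camp (0.65 and 0.58) had the same sign in both. The ratios were then 0.42 and −0.019 for Pf4 and 0.00 and 2.75 for Mgp.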

How the results depend on the processing

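Differences between libraries have no replicate check, few cells carry each level, and 1 cell can hold most UMIs of a gene. Where a value below differs from that in the report, the cause was not tested, beyond the fewer cells or genes that each setting leaves.

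With at least 2 UMIs over Cxcr6 and Itga1, the shares of CD8 T cells were 12.8%, 16.6% and 11.5%, and after thinning to 1000 UMIs 14.8%, 19.2% and 14.8%. Genes past 1.5-fold for PD-L1 against PBS numbered 862 at a mean CPM of 20, 75 at 200, 990 after thinning and 562 with at least 2 Cxcr6 and Itga1 UMIs, against 364. For AI-Exo against PBS they numbered 789, 91 and 930 under the first 3 of these settings, against 375. For AI-Exo against PD-L1 they numbered 973, 121 and 868, with 208 without cells of 15000 UMIs or more and 202 without myeloid-UMI cells, against 458.

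Against the Gzmk-positive class, the 2 calls became 18 in DESeq2, 229 with no filter, 0 with no replicate block for the library, 13 with only the 2 classes in the fit, 5 after thinning, 36 without myeloid-UMI cells and 0 to 7 with 1 library left out. Against the negative class, the 57 calls became 121, 374, 13 (no replicate block) and 95 under the first 4 settings, 356 without myeloid-UMI cells, and 9, 11 and 38 with PBS, PD-L1 or AI-Exo left out. Against the naive-like class, the 1752 calls became 1066 with only the 2 classes, 694 after thinning and 790, 1342 and 992 with PBS, PD-L1 or AI-Exo left out. Of the named genes, 18 lost their call without the block.

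Log2 ratios that changed sign were mainly those of myeloid genes. For PD-L1 against PBS without myeloid-UMI cells, S100a8 was at 0.99, S100a9 at 0.87 and Ngp at 0.23. Without cells of 15000 UMIs or more, Camp was at 0.18, H2-Ab1 at 1.52, H2-Aa at 1.44, H2-Eb1 at 1.15 and Cd74 at 1.45. Cd8a was at −0.016 after thinning. For AI-Exo against PBS without myeloid-UMI cells, Lcn2 was at 0.88, Cst3 at −2.00, S100a8 at 1.34, S100a9 at 0.59, Pf4 at 0.42, Cd9 at −0.13, Klrc1 at 0.028, Camp at 0.65, Ngp at 0.59 and H2-Eb1 at −4.01. Without cells of 15000 UMIs or more, Lcn2 was at 1.11, Gpnmb at −0.027, Olr1 at −0.26, Camp at 0.58 and Ngp at 0.27. Without dividing cells, Lcn2 was at 1.22, S100a8 at 0.25, S100a9 at 0.32, Camp at 0.97 and Ngp at 0.35. Without cells of a Scrublet score of 0.15 or more, Cst3 was at −0.19. For AI-Exo against PD-L1, Ikzf2 was at −0.15 without dividing cells. Spp1 was at −1.10 and −0.82, and Arg1 at −0.39 and −0.42, without cells of 15000 UMIs or more and without myeloid-UMI cells. In the edgeR fit against the negative class, Ifitm1 was at −0.026 without PBS and at −0.19 without the Scrublet-scored cells.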
